A study of Mus musculus with 20 samples.

Results

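Metastases of a mouse bladder cancer model were compared with normal bladders on 9 whole-transcript arrays, 4 of metastases (M1, M2, M3 and M4) and 5 of normal bladders (CT1, CT2, CT4, CT5 and CT6), chosen by their titles from the 20 arrays of the series. All mice were CKO mice on the FVB/N background. They carry floxed alleles, that of Rb1 among them, which Cre recombinase can delete, and they are p107-/-, so the normal bladders lack p107 (Rbl1) as well. The other engineered genes were not analysed here. Tumours were started by an adenovirus coding for Cre placed in the bladder, and the metastases came from such mice. The labels name no treatment for the 4 metastases, and give neither the organ a metastasis was taken from nor the sex, age or identity of any animal. A further sample, titled PALBO-MET, was left out of the comparison, so 9 of 20 arrays entered it. The values are log2 expression levels, and arrays had medians between 5.11 and 5.48, which is about where a gene without clear signal lies. The number of arrays limits the precision. The labels tie no array to an animal, so p-values measure only the spread between these samples, which may be technical.

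The bladder wall has an inner urothelium, whose uppermost cells carry plaques of uroplakins (the Upk genes) and whose basal cells carry keratin 5 and p63, and a thick coat of smooth muscle. Between them lie fibroblasts, vessels and nerves. Urothelial cells signal to the stroma beneath through Sonic hedgehog, which the stroma receives through Ptch1 and answers by making Hhip and bone morphogenetic proteins. A metastasis lies in another organ and holds tumour cells, cells of that organ and macrophages, which take up debris, carry lysozyme and are rich in lysosomal proteases. In bulk tissue, fewer cells of a type and less RNA per cell cannot be told apart.

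The 9 arrays were of 2 kinds, which the labels do not mention and which were read from the values. M1, M2, CT1 and CT2 belong to a kind of 12 arrays in the series, and M3, M4, CT4, CT5 and CT6 to a kind of 8. On the 8 arrays the SD of dim rows was above 0.30 and no correlation of an array's deviations with those of another array reached 0.25, among the 5317 rows whose mean was 7 or more. Both limits had to be met, and the split was not wide. The tumour bladder TUMOR1, of the kind of 12, had an SD of 0.33. A treated bladder of that kind, PALBO1, had a highest correlation of 0.26, beside 0.21 for CT6. Among the 9 arrays and after subtraction of each row's mean, CT1 and CT2 correlated at 0.779 and M1 and M2 at 0.274. M3 and M4 correlated at -0.061, and the pairs among CT4, CT5 and CT6 at -0.144 to 0.001. Differences between metastases and normal bladders are therefore given over all 9 arrays, within M1, M2, CT1 and CT2, and within M3, M4, CT4, CT5 and CT6. What the 2 kinds stand for was not tested, and because they were read from these values, a difference between them is not independent evidence.

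Genes linked to sex also differed within the first kind. Xist, the RNA that silences an X chromosome in females, read 11.74 on CT1 and 11.71 on CT2 against 5.44 on M1 and 5.72 on M2. The Y-linked genes Eif2s3y and Uty ran the other way, with 6.43 and 6.36 on M1, 6.04 and 6.19 on M2, 4.70 and 4.84 on CT1, and 4.76 and 5.01 on CT2. Xist lay between 6.74 and 7.07 on the other 5 arrays. On M1, M2, CT1 and CT2 a difference in sex and the difference between metastasis and normal bladder cannot be told apart.

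No gene passed the test of the 4 metastases against the 5 normal bladders in the fit over all 20 arrays. Of 30063 genes, 0 (0%) had an adjusted p under 0.05 in limma's moderated test, and the smallest adjusted p was 0.526. An unadjusted p under 0.05 was found for 2078 genes (6.91%), 932 of them higher (3.1%) and 1146 lower (3.81%) in metastases. The higher genes were 44.9% of these, against 63.1% of 2160 after renewed quantile normalisation and 58.8% of 2024 with each array centred on its median, so the balance of the directions depends on the scaling. All metastases lay above all normal bladders for 321 genes (1.07%) and below them for 537 (1.79%). A fit on these 9 arrays alone called 1 gene, Gm3534, with an adjusted p of 0.0125.

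Gm3534, annotated as a pseudogene by RefSeq and named here after its values were seen, read 10.53, 10.29, 9.72 and 10.34 on M1 to M4 and 8.02 to 8.52 on the 5 normal bladders. It was higher in 4 of 4 metastases on both kinds of array, by 2.11 between M1, M2 and CT1, CT2 and by 1.73 between M3, M4 and CT4, CT5, CT6. A pseudogene's probes may also bind transcripts of the gene it was copied from. The other 11 arrays of the series ran from 7.62 to 11.65 for Gm3534, and in the test over all 20 arrays its adjusted p was 0.717.

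Another 3 genes passed in a fit of the first kind of array. In that limma fit of the 12 arrays of that kind, Ahsg, Lyz1 and Ctsk rose in M1 and M2 over CT1 and CT2 (3 of 30063 genes, 0.00998%), and 0 genes fell (0%). At an unadjusted p under 0.05, 1107 genes (3.68%) were higher and 899 (2.99%) lower in that fit. The upstream sequences of Ahsg, Lyz1 and Ctsk are shown because these genes passed the test and because Lyz1 has a close relative, Lyz2, whose values are given beside it. The 250 bases before each start site come from RefSeq on GRCm38.p6, 5′ to 3′ on the gene's strand, with capitals for AGGAAG on either strand, the core that PU.1 and other ETS factors bind.
Lyz1: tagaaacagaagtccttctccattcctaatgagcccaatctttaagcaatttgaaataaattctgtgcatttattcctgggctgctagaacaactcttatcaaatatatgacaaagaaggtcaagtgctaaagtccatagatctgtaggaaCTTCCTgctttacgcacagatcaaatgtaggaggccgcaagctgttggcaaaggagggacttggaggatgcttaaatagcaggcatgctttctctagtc
Lyz2: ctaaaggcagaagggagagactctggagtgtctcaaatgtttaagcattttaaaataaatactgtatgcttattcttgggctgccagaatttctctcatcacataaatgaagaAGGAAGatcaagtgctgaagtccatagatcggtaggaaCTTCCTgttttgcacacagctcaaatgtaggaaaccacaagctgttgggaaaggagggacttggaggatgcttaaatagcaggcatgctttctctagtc
Ctsk: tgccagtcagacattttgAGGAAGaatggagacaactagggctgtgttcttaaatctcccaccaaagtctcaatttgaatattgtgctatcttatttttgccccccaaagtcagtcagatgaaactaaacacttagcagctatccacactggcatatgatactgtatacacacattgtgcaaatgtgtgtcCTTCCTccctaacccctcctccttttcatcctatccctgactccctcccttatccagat
Ahsg: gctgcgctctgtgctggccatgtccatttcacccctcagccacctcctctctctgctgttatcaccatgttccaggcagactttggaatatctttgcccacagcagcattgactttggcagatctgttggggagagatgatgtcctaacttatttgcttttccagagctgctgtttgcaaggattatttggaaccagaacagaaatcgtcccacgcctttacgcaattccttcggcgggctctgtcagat

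The sequences lie at chr10:117292869-117293118 (Lyz1) and chr10:117282273-117282522 (Lyz2), both on the minus strand, at chr3:95498960-95499209 (Ctsk) and at chr16:22891765-22892014 (Ahsg), both on the plus strand. The starts of Lyz1 and Lyz2 are 10596 bases apart, and their upstream stretches agree at 79.4% of aligned positions, against 45.1% to 49.3% for the other pairs. AGGAAG occurs once in Lyz1, 2 times in Lyz2, 2 times in Ctsk and not in these letters in Ahsg. Of 32841 promoters of this length, 29.5% hold it on either strand, so a match describes the sequence and is no sign of binding.

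Ahsg, which encodes fetuin-A, a protein secreted by the liver, read 10.16, 9.86, 6.27 and 6.32 on M1, M2, M3 and M4. It read 5.17, 4.96, 6.26, 6.40 and 5.88 on CT1, CT2, CT4, CT5 and CT6. M1 and M2 stood far above every other array, and M3 and M4 lay among the normal bladders. On the first kind the difference was 4.95 (SE 0.38, adjusted p = 0.00304 by limma), and on the second it was 0.12. The other 11 arrays of the series lay between 4.80 and 6.63, PALBO-MET at 6.50 among them.

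Lyz1, a lysozyme of macrophages and Paneth cells, read 10.72, 10.37, 7.56 and 7.75 on M1 to M4. The normal bladders read 6.86, 6.46, 7.83, 7.34 and 7.74 in the order of their numbers. Its difference was 3.89 on the first kind (SE 0.31, adjusted p = 0.00304 by limma) and 0.02 on the second. PALBO-MET read 9.55, and the tumour bladders 6.38 to 7.79. Lyz2, the lysozyme of macrophages and neutrophils, was brighter and followed the same pattern with 12.87, 12.77, 9.47 and 9.82 on M1 to M4 against 8.54, 8.06, 9.36, 9.90 and 9.90 on CT1, CT2, CT4, CT5 and CT6. Its difference of 4.51 on the first kind had an adjusted p of 0.296 in limma, with an SE of 0.92. Since the transcripts of Lyz1 and Lyz2 are alike, their signals on an array may share probes and are uncertain as separate values.

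Ctsk, cathepsin K, the collagen-degrading protease of osteoclasts and some macrophages and fibroblasts, read 7.61, 7.93, 6.54 and 5.74 on M1 to M4. The normal bladders lay between 5.36 and 6.12. M1, M2 and M3 were above all normal bladders and M4 was not. The difference on the first kind was 2.29 (SE 0.20, adjusted p = 0.00495 by limma) and on the second 0.35.

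**Figure D1:**
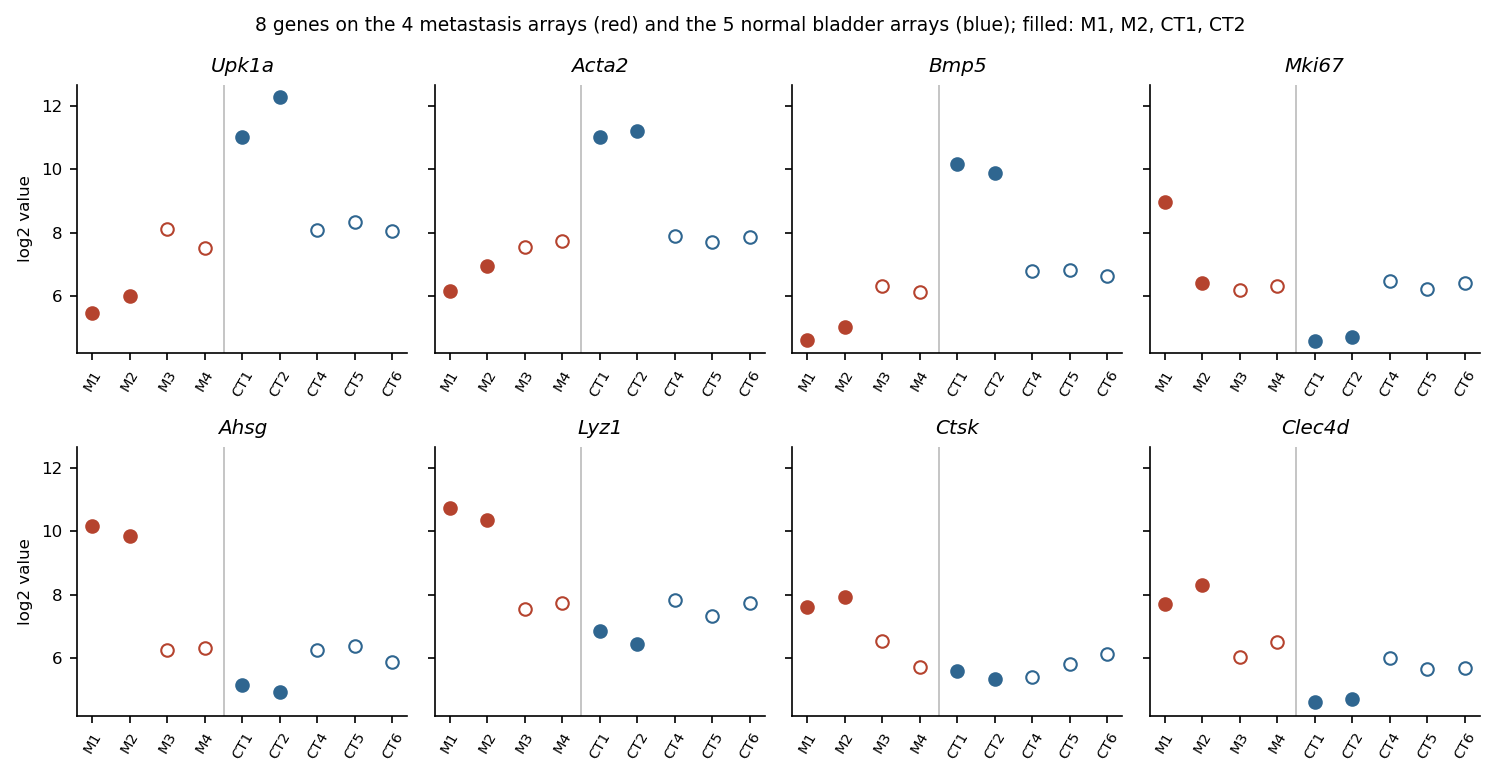
Log2 values of 8 genes (1 panel each) on the 4 metastasis arrays (red) and the 5 normal bladder arrays (blue), with filled points for M1, M2, CT1 and CT2 and open points for the other kind of array. Filled points are far apart, as for Upk1a at 5.46 on M1 and 12.28 on CT2, while open points of both groups lie close together, at 7.51 to 8.34 for Upk1a.

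Whether the difference depended on the kind of array was tested directly as an interaction. It passed for 2 of 30063 genes (0.00665%), Ahsg, with a difference between the kinds of 4.83 (SE 0.45, adjusted p = 0.000558 by limma), and Lyz1, with 3.87 (SE 0.42, adjusted p = 0.00209). Without M1 11 genes passed and without M2 47, and fits on the 9 arrays alone or with array weights gave 113 and 40. With PALBO-MET counted as a metastasis, Ahsg no longer passed, and Lyz1 and Ptch1 did. Across 2620 bright genes (mean 7 or more), the SD of the differences was 0.859 on the first kind and 0.452 on the second. On M3, M4, CT4, CT5 and CT6 alone, the test was passed by 0 genes (0%), with a smallest adjusted p of 0.763 in limma, and 1574 (5.24%) lay under an unadjusted 0.05.

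**Figure D2:**
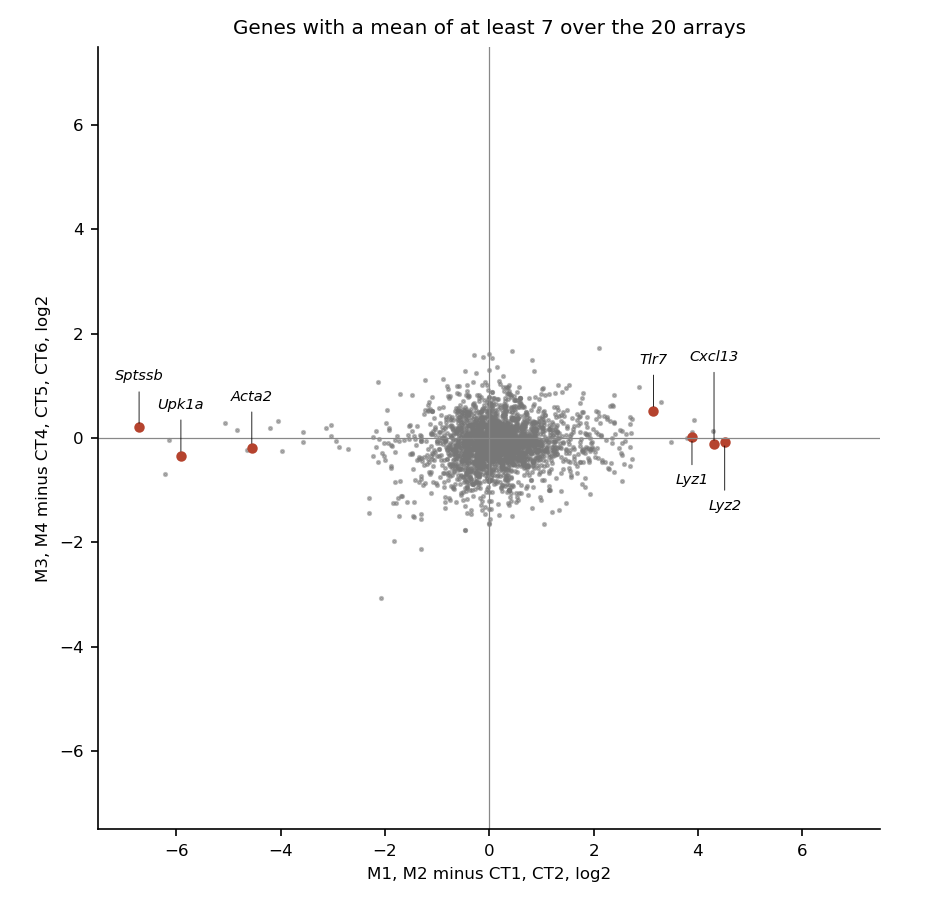
Each point is 1 of the 2620 bright genes (mean 7 or more over the 20 arrays), plotted by its log2 difference between M1, M2 and CT1, CT2 (horizontal axis) and between M3, M4 and CT4, CT5, CT6 (vertical axis), with 7 genes labelled. The cloud is wider along the horizontal axis, and the labelled genes reach from -6.72 (Sptssb) to 4.51 (Lyz2) there and from -0.34 (Upk1a) to 0.53 (Tlr7) along the vertical axis.

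Genes of the luminal urothelium had the lowest median of all lists on the first kind of array. Of 23 measured luminal genes, 1 was higher and 22 lower in the mean over 9 arrays, with a median difference of -0.92, beside 47.3% of all genes higher, 52.7% lower and a median of -0.01 over all genes. None passed the test, and 2 were lower at an unadjusted p under 0.05, beside 3.81% of all genes. On M1, M2, CT1 and CT2, 20 of 23 were lower without overlap, beside 25% of all genes, and 16 were lower by at least 1, beside 1.45% of all genes. The median difference there was -1.95, and on M3, M4, CT4, CT5 and CT6 it was -0.07.

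Upk1a, a tetraspanin of the apical plaque, read 5.46, 6.00, 8.12 and 7.51 on M1 to M4 and 11.01, 12.28, 8.07, 8.34 and 8.04 on CT1, CT2, CT4, CT5 and CT6. M1 and M2 were lower than their normal counterparts by 5.92 (SE 2.26, adjusted p = 0.683 by limma), while the remaining arrays of both groups overlapped. Its partner Upk2 differed by -2.33 on the first kind and by -0.07 on the second. Upk3a, which spans the membrane once and pairs with Upk1b, read 4.75 and 4.96 against 9.55 and 10.30. On M3 and M4 Upk3a read 7.07 and 7.13, and on CT4, CT5 and CT6 6.76 to 6.90.

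Upk1b differed between M1 and M2. It was at 8.43 on M1 and 12.14 on M2, against 13.15 and 13.31 on CT1 and CT2 and 9.99 to 10.78 on the 5 arrays of the other kind. Krt18 and Krt8, keratins of simple epithelium, did likewise, with 4.46 and 5.02 on M1 and 6.32 and 6.80 on M2, against 8.43 and 6.80 on CT1 and 8.47 and 7.13 on CT2. The membrane proteins Tspan8 and Plet1 read 4.82 and 5.01 on M1 and 7.93 and 6.09 on M2. M1 was the lowest of the 9 arrays for each of these 5 genes.

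Genes of the basal layer and of squamous cells were less uniform. Of 26 measured, 5 were higher and 21 lower over 9 arrays, with a median of -0.17, and 17 were lower without overlap on the first kind, beside 25% of all genes. Krt5, the basal keratin, read 5.02, 5.44, 6.45 and 6.59 on M1 to M4 and 8.27, 8.28, 6.83, 6.71 and 6.96 on the normal bladders, so all 4 metastases lay below all 5. Its difference was -1.53 (unadjusted p = 0.0323 in limma), and 1.79% of all genes were lower without overlap in this way. Trp63, the basal transcription factor p63, read 4.80 and 4.97 on M1 and M2 and 6.00 and 6.29 on CT1 and CT2. Krt14, another basal keratin, ranged from 4.99 to 5.84 on all 9 arrays with no order between the groups. Ivl, the envelope protein involucrin, read 4.84 and 4.91 on M1 and M2 against 10.88 and 11.31 on CT1 and CT2, and 6.96 to 8.63 on the other 5. Sprr2b, another envelope protein, read 4.54 and 4.27 against 8.81 and 9.70.

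Genes of cell contacts were lower too. Of 22 junction genes, 19 were lower, with a median of -0.20, and 17 were lower without overlap on the first kind, beside 25% of all genes. The median was -0.55 there and turned to 0.04 on the second kind. Over the 9 arrays 0 of the 22 were lower without overlap, beside 1.79% of all genes. Cdh1, E-cadherin, read 5.03, 5.27, 6.69 and 6.24 on M1 to M4 against 7.07 and 7.28 on CT1 and CT2 and 6.40 to 6.61 on CT4 to CT6. Epcam ranged only from 5.15 to 6.07. Cldn4, a tight-junction claudin, read 4.86, 4.46, 5.94 and 5.54 on M1 to M4 and 7.07, 7.29, 6.29, 6.60 and 6.57 on the normal bladders, without overlap on either kind. Aqp3, a water channel of the urothelium, was likewise below all normal bladders, with 4.90, 5.13, 6.22 and 6.35 against 6.36 to 8.53, but M4 and CT6 were almost equal. Cldn4 and Aqp3 belong to the luminal list, not to the junction list, and were named after their values were seen. On the second kind the difference was -0.75 for Cldn4 and -0.33 for Aqp3. Sptssb, a small subunit of serine palmitoyltransferase, had the widest difference of all these genes on the first kind, 5.58 and 5.74 against 12.00 and 12.75, and none that separated M3 and M4 (8.87 and 8.55) from CT4 to CT6 (8.21 to 8.67).

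Genes of mesenchymal transition were evenly divided. Of 19, 10 were higher, with a median of 0.00 over 9 arrays, 0.23 on the first kind and -0.02 on the second. Cdh2, N-cadherin, read 7.09, 6.91, 6.01 and 5.88 on M1 to M4 against 5.37 to 5.90 on the normal bladders, a difference of 0.83 (SE 0.23) with an unadjusted p of 0.00211 and an adjusted p of 0.717 in limma. M4 lay within the range of the normal bladders. Vim, the filament protein vimentin, read 7.26 and 7.16 on M1 and M2 against 6.15 and 5.97 on CT1 and CT2. Fn1, fibronectin, was at 11.41 on M1 and 9.63 on M2 against 8.44 to 9.14 on the normal bladders. Zeb1, a repressor of E-cadherin, ranged from 6.47 to 7.02 with no order.

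Smooth muscle genes were lower in metastases in 23 of 23 cases, with a median of -0.75. None passed the test, 9 were lower at an unadjusted p under 0.05, beside 3.81% of all genes, and 3 were lower without overlap over the 9 arrays, beside 1.79%. On the first kind 23 of 23 were lower without overlap, beside 25% of all genes, and 17 by at least 1, beside 1.45%, with a median of -1.63. On the second kind the median was -0.12, with 3 lower and 1 higher without overlap, beside 11.3% and 8.59% of all genes. Acta2, smooth muscle actin, read 6.18, 6.94, 7.54 and 7.72 on M1 to M4 and 11.01, 11.21, 7.88, 7.70 and 7.86 on the normal bladders. Myh11, the smooth muscle myosin, read 5.61, 5.57, 7.23 and 7.24 against 10.35, 10.13, 7.42, 7.58 and 7.39, so that it did not overlap even on the second kind, where the difference was -0.23. Tagln read 5.84 and 5.70 against 9.79 and 9.71, Actg2 5.43 and 5.55 against 9.66 and 9.73, and Des 5.51 and 5.16 against 7.80 and 7.54, each on M1 and M2 against CT1 and CT2.

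Genes of the hedgehog signal and of bladder mesenchyme formed a list that was chosen after the values were seen and gets no test. Of its 17 measured members 13 were lower, with medians of -0.26 over 9 arrays, -0.72 on the first kind and 0.06 on the second. Bmp5, a bone morphogenetic protein made by bladder stroma, read 4.63, 5.03, 6.33 and 6.13 on M1 to M4 and 10.15, 9.87, 6.80, 6.81 and 6.64 on the normal bladders, without overlap. Hhip, a secreted hedgehog inhibitor, read 4.36 and 4.54 on M1 and M2 against 9.29 and 8.86 on CT1 and CT2, and 5.74 to 6.08 on the other 5 arrays. Ptch1, the receptor, read 5.94 and 5.77 against 8.49 and 8.16, and its difference between the kinds, -2.54, had an adjusted p of 0.06 in limma. Gli1, a transcription factor of the pathway, read 5.63 and 5.49 against 6.52 and 6.04. Shh itself read 4.95 and 5.19 against 6.03 and 5.96.

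The other stromal lists had medians nearer 0. Of 24 fibroblast and matrix genes, 10 were higher and 14 lower, with a median of -0.06, and of 21 endothelial genes 5 were higher, with a median of -0.16. Col1a1, type I collagen, read 7.24 on M1 and 8.28 on M2 against 7.40 to 7.74 on the normal bladders. Dcn, decorin, read 8.86 and 9.76 on M1 and M2 and 9.79 and 9.77 on CT1 and CT2. Pecam1, an endothelial adhesion protein, read 6.33 and 6.12 against 7.19 and 6.74. Pi16, a marker of adventitial fibroblasts, was lower in all 4 metastases, at 4.98 to 5.23 against 5.39 to 6.02. It was named for its small p, so the unadjusted p of 0.000939 in limma is no separate evidence. Its adjusted p was 0.717, and 1.79% of all genes were lower without overlap over the 9 arrays. Scn7a, a sodium channel of nerve and glia, was at 5.93 on M1 and 4.71 on M2 against 8.25 and 8.15 on CT1 and CT2.

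**Figure D3:**
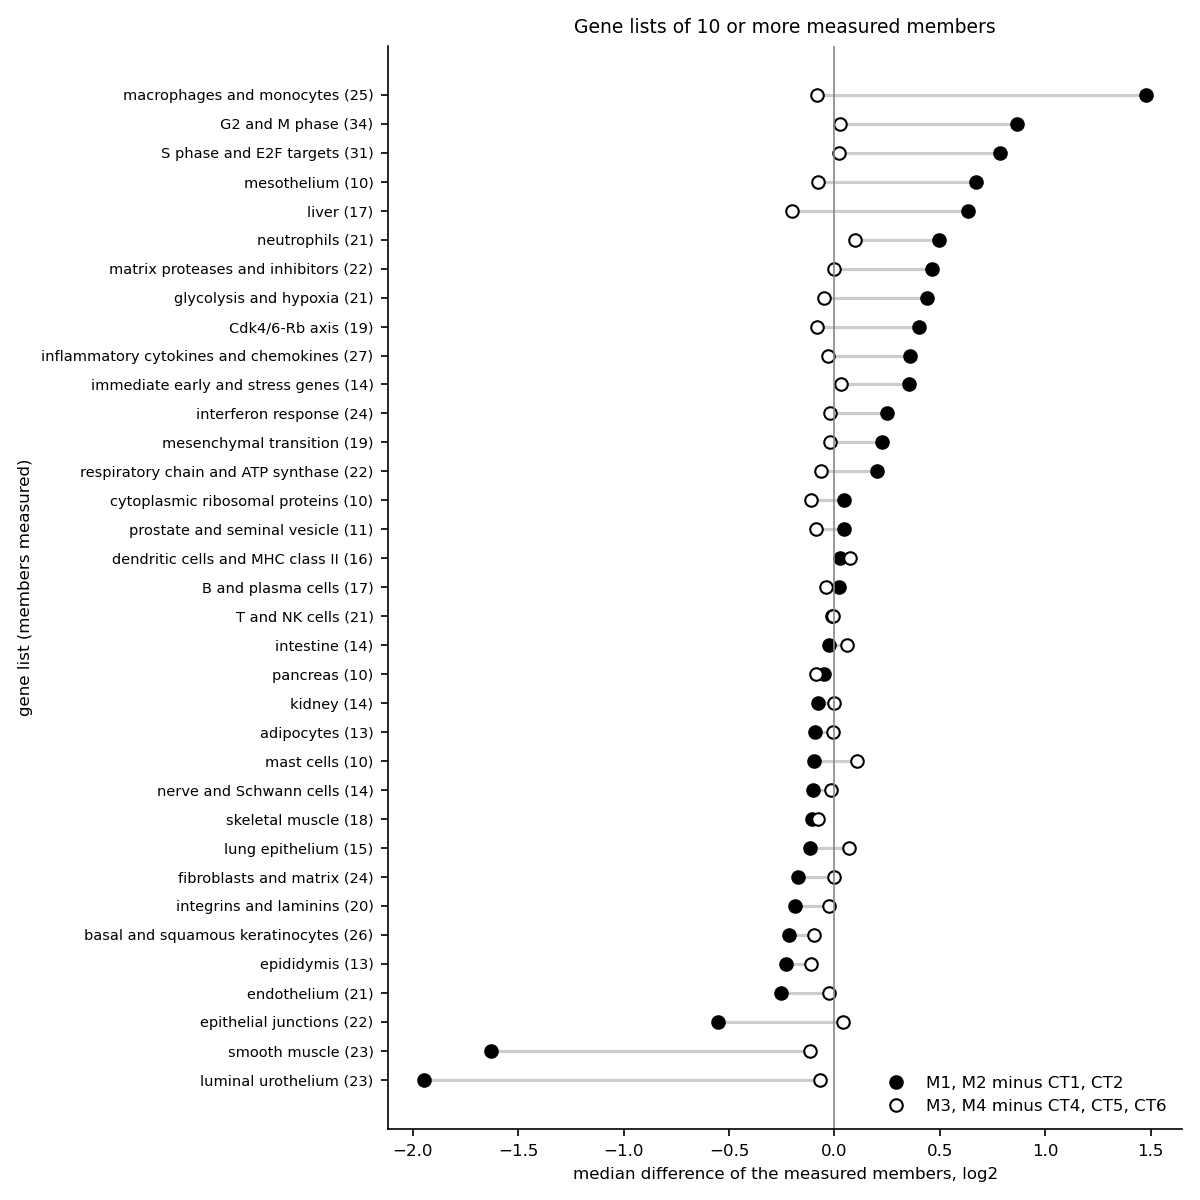
Median log2 difference between metastasis and normal bladder of each gene list with 10 or more measured members (their number in brackets), without the lists chosen after the values were seen, for M1, M2 against CT1, CT2 (filled) and for M3, M4 against CT4, CT5, CT6 (open). Filled points run from -1.95 (luminal urothelium) to 1.48 (macrophages and monocytes), and open points from -0.20 (liver) to 0.11 (mast cells).

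Macrophage genes had the highest median of the lists in the plot of list medians. Of 25 measured, 23 were higher in metastases, with a median of 0.70 over 9 arrays. None passed the test, and 15 were higher at an unadjusted p under 0.05, beside 3.1% of all genes. On M1, M2, CT1 and CT2, 20 were higher without overlap, beside 22.2% of all genes, and 17 by at least 1, beside 2.37% of all genes. The median was 1.48 there and -0.08 on the second kind. The list's mean level was 7.81 on M1 and 7.31 on M2, 6.33 and 6.39 on M3 and M4, 5.82 and 5.76 on CT1 and CT2, and 6.40 to 6.54 on CT4 to CT6. M3 and M4 thus lay below the 3 normal bladders of their kind.

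General macrophage receptors and markers were higher on M1 and M2 than on CT1 and CT2, though none passed the test. Csf1r, the receptor for macrophage growth factor, read 7.28 and 6.99 on M1 and M2 against 5.76 and 5.77 on CT1 and CT2. Cd68, a lysosomal glycoprotein, read 8.01 and 8.29 against 5.69 and 5.39. C1qb, of the first complement component, read 10.69 and 8.24 against 4.65 and 4.30, and 5.75 to 7.55 on the other 5 arrays. Tyrobp, an adaptor of activating receptors, read 9.45 and 8.62 against 5.96 and 5.77, and Lilrb4a, an inhibitory receptor, 10.77 and 8.76 against 5.56 and 5.40. Not all members did so. Cd163, a scavenger receptor for haemoglobin, ranged from 5.75 to 6.25 on all 9 arrays, and Cx3cr1, the fractalkine receptor, from 6.65 to 7.58, with no order.

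Clec4d, Tlr7, Gpr65 and Irf8, named for their small p, did not overlap on either kind. Clec4d, a C-type lectin of myeloid cells, read 7.72, 8.32, 6.05 and 6.53 on M1 to M4 and 4.61, 4.73, 6.01, 5.67 and 5.71 on the normal bladders. The gap between M3 and CT4, the closest pair, was small. Over 9 arrays its difference was 1.81 (SE 0.43), with an unadjusted p of 0.000593 and an adjusted p of 0.717 in limma. Tlr7, a sensor of single-stranded RNA, read 9.21, 9.59, 7.40 and 7.95 against 6.26, 6.24, 6.98, 7.10 and 7.37. Gpr65, a proton-sensing receptor, read 6.90, 6.80, 5.81 and 6.01 against 4.99 to 5.47. Irf8, a transcription factor of monocytes and dendritic cells, read 6.69, 6.29, 6.27 and 6.16 against 5.74 to 5.93. Of all genes, 1.07% were higher without overlap over the 9 arrays. The difference on the second kind was 0.49, 0.53, 0.76 and 0.36 in that order.

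Lysosomal genes were higher in 18 of 18 cases over 9 arrays, with a median of 0.56, on a list chosen after the values were seen. On the first kind the median was 1.13 with 18 of 18 higher without overlap, beside 22.2% of all genes, and on the second kind it was 0.00. Ctss, the cathepsin of antigen-presenting cells, read 7.99 and 7.91 on M1 and M2 against 4.74 and 4.62 on CT1 and CT2. Lgmn, an asparaginyl protease, read 10.12 and 10.64 against 7.04 and 6.76, and Ctsb 10.54 and 10.78 against 8.35 and 8.15. Ctsl was at 9.60 on M2 and 7.82 on M1, and Ctsc, which activates granule proteases, at 11.14 on M1 and 7.11 on M2.

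Lists of osteoclasts and of peritoneal macrophages, also chosen after the values were seen, were looked at because of Ctsk and Lyz1. Of 13 osteoclast genes 13 were higher over 9 arrays, with a median of 0.26 that turned to -0.04 on the second kind. Acp5, tartrate-resistant phosphatase, read 6.48 and 6.55 on M1 and M2 against 5.46 and 5.46 on CT1 and CT2, Mmp9 6.95 and 6.19 against 4.80 and 4.83, and Atp6v0d2, a proton pump subunit, 5.38 and 5.81 against 4.49 and 4.66. Of 21 genes of peritoneal macrophages 18 were higher, with a median of 0.47 that turned to -0.10 on the second kind. Cxcl13, a B-cell attracting chemokine, was at 13.52 on M1 and 9.99 on M2, against 7.54 and 7.36 on CT1 and CT2 and 13.40 on PALBO-MET. Prg4, lubricin, read 7.75 and 7.92 against 4.96 and 4.88. Gata6, the transcription factor of large peritoneal macrophages, stood out on M2 alone, at 8.90 against 6.81 on M1 and 6.64 to 7.32 on the normal bladders. Arg1, arginase, read 8.54 on M1 and 6.96 on M2 against 5.06 and 5.01. These lists share genes with the macrophage list, and which cells the signals came from was not tested.

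Neutrophil genes were higher in 18 of 21 cases, with medians of 0.38 over 9 arrays, 0.50 on the first kind and 0.10 on the second. None passed the test, and 5 were higher at an unadjusted p under 0.05, beside 3.1% of all genes. Without overlap over the 9 arrays 3 were higher, Clec4d among them, beside 1.07% of all genes and 0 on the macrophage list. On the first kind 17 were higher and 1 lower without overlap, beside 22.2% and 25% of all genes. S100a8 and S100a9, the calprotectin subunits, read 8.77 and 9.25 on M1, 7.71 and 8.51 on M2, 4.26 and 4.67 on CT1 and 4.64 and 5.23 on CT2. On the second kind they spanned 6.64 to 7.89 and 6.42 to 8.97, with metastases inside the range of the normal bladders. Ly6g, a defining surface marker, ranged from 5.72 to 6.37 and Cxcr2, the receptor that draws neutrophils, from 5.38 to 5.94 over the 9 arrays. Lymphocyte lists were flat. Of 21 genes of T and NK cells 9 were higher, with a median of -0.02, and of 17 of B and plasma cells 8, with a median of -0.02. Both medians turned positive under renewed quantile normalisation, to 0.02 and 0.04. Cd3e lay between 4.76 and 5.29 and Ms4a1, the B-cell antigen CD20, between 4.52 and 5.26.

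The means of the cytokine and interferon lists were highest on M1. Of 27 cytokine and chemokine genes 17 were higher, with a median of 0.06 over 9 arrays, 0.36 on the first kind and -0.03 on the second. Ccl8, a monocyte attractant, read 11.05 on M1, 5.71 on M2, 7.09 on M3 and 8.68 on M4, against 5.60 to 7.36 on the normal bladders. Ccl6, made by myeloid cells, read 11.48 and 10.29 on M1 and M2 against 6.97 and 7.01. Cxcl14, an epithelial chemokine, ran the other way, with 6.34 and 5.40 on M1 and M2 against 8.68 and 8.30. Il33, an alarmin, read 5.95 and 5.98 against 4.49 and 4.47. Of 24 interferon genes 16 were higher, with a median of 0.07 that turned to -0.02 on the second kind and to -0.03 without M1. Isg15 and Ifit1 stayed within 4.74 to 5.47 and 5.21 to 6.60. H2-Ab1, of MHC class II, was at 8.85 on M1 and 6.38 to 7.19 on the other 8 arrays. B2m, the light chain of MHC class I, differed on the second kind in particular, at 13.38 and 13.02 on M3 and M4 against 11.38 to 11.61 on CT4 to CT6. On the first kind it read 14.20 and 13.78 against 13.55 and 13.58, and over 20 arrays its unadjusted p was 0.156 in limma.

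Cell cycle genes were higher almost throughout in the mean of the 4 metastases, with list means highest on M1 and lowest on CT1 and CT2. Of 34 genes of G2 and M phase 33 were higher, with a median of 0.34, and of 31 of S phase 30, with a median of 0.36. None passed the test, and 4 and 7 were higher at an unadjusted p under 0.05, beside 3.1% of all genes. On the first kind, 34 of 34 and 27 of 31 were higher without overlap, beside 22.2% of all genes, with medians of 0.87 and 0.79, and on the second the medians were 0.03 and 0.02. The mean level of the G2 and M list was 6.58 on M1, 5.60 on M2, 5.70 and 5.64 on M3 and M4, 5.08 and 5.14 on CT1 and CT2, and 5.67 to 5.74 on CT4 to CT6. M2 and M4 thus lay below CT4, CT5 and CT6, and M3 lay among them. Mki67, the proliferation antigen, read 8.96, 6.41, 6.18 and 6.32 on M1 to M4 and 4.58, 4.71, 6.47, 6.22 and 6.41 on the normal bladders. Top2a, a topoisomerase of dividing cells, read 8.16 and 6.08 on M1 and M2 against 5.05 and 5.13 on CT1 and CT2, and Mcm4, of the replicative helicase, 7.74 and 6.50 against 5.69 and 5.46.

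The Rb pathway restrains this programme, and its engineered members come first. Rb1 read 6.23, 6.04, 5.94 and 5.70 on M1 to M4 and 5.78 to 6.32 on the normal bladders, with a difference of -0.15 (SE 0.18). The position of the probes relative to the floxed part is not given in the sources used here, so this value does not check the deletion. Rbl1 read 8.30, 6.31, 6.61 and 6.74 against 6.27 to 6.79, with M1 apart, although p107 is deleted in all these mice. Where its probes lie relative to the deletion is likewise not given in the sources used here. Of 19 genes of the Cdk4/6 and Rb axis 13 were higher, with a median of 0.15, 0.40 on the first kind and -0.08 on the second. Cdk4 itself was above all normal bladders in all 4 metastases, at 8.13, 7.11, 7.04 and 7.25 against 6.51, 6.39, 6.60, 6.33 and 6.85, a difference of 0.85 (SE 0.36, unadjusted p = 0.03 in limma). Cdk6 did so too, at 6.86, 6.33, 5.82 and 5.93 against 5.46 to 5.79, with an adjusted p of 0.719 in limma. The gap between M3 and CT6, its closest pair, was very small. Ccnd2, a D-type cyclin, read 6.38 and 6.06 on M1 and M2, a mean difference of -0.93 from CT1 and CT2. Cdkn2a, the locus of the Cdk4/6 inhibitor p16, read 6.83 and 6.80 against 5.62 and 5.47, and Cdkn1a, p21, 6.95 and 7.18 against 6.18 and 6.15.

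Of 21 genes of glycolysis and hypoxia 19 were higher, with medians of 0.24 over 9 arrays, 0.44 on the first kind and -0.05 on the second. Pgk1, phosphoglycerate kinase, read 9.16, 7.87, 7.79 and 6.77 on M1 to M4 and 5.88, 5.83, 6.35, 6.92 and 7.24 on the normal bladders. Slc2a1, the glucose transporter, was at 7.17 on M1 and 5.86 to 6.33 on the other 8 arrays. Respiratory chain genes had a median of 0.06 and cytoplasmic ribosomal proteins one of -0.05. Of 22 matrix proteases and inhibitors 15 were higher, with a median of 0.22 that was 0.00 on the second kind. At an unadjusted p under 0.05, 7 were higher, beside 3.1% of all genes, Ctsk, Mmp9 and Mmp12 among them. Mmp12, the macrophage elastase, read 6.39, 6.00, 5.24 and 5.63 against 4.82 to 5.58.

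Markers of other organs were asked of each metastasis because its site is not given. The liver list averaged 7.31 on M2 and 6.07 on M1, against 5.64 and 5.69 on M3 and M4 and 5.47 to 5.78 on the normal bladders, with a median difference of 0.64 on the first kind and -0.20 on the second. Of its 17 measured members, 5 were higher and 2 lower without overlap on the first kind, beside 22.2% and 25% of all genes. By at least 1, 8 were higher and 1 lower there, beside 2.37% and 1.45%. The lower one was Rbp4, at 5.93 and 5.68 on M1 and M2 against 7.17 and 6.95 on CT1 and CT2. On M2 the fibrinogen chains Fgg and Fgb read 10.16 and 9.95, albumin (Alb) 9.40, haemopexin (Hpx) 8.14 and the acute phase glycoproteins Orm1 and Orm2 9.68 and 8.80. On the other 8 arrays Fgg and Alb did not exceed 5.25 and 6.13. Apoa1, an apolipoprotein, was highest on M2 as well, at 5.70 against 4.67 to 5.29 on the other 8, and Ttr, transthyretin, was not, at 5.37 against 4.43 to 6.04. M1 shared Ahsg and Trf, transferrin, with M2 (Trf at 11.20 and 10.44 against 8.22 to 8.68 on the other 7), but read 4.32 for Fgg and 5.03 for Alb. Hp, haptoglobin, was at 9.20 on M1 and 10.11 on M2 against 7.06 and 7.16 on CT1 and CT2. Of 17 acute phase proteins, on a list chosen after the values were seen, 17 were higher over 9 arrays, with a mean level of 8.19 on M2, 6.09 on M1 and 5.29 to 5.91 on the normal bladders. M3 and M4, at 5.70 and 5.72, lay below CT4, CT5 and CT6, and the median on the second kind was -0.06. How far these values come from cells of a host organ was not tested.

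The mesothelial list was highest on M2, at 6.33 against 5.76 on M1 and 5.54 to 5.79 on the other 7 arrays. Wt1, a transcription factor of mesothelium, read 6.65 and 6.86 on M1 and M2 against 4.37 and 4.57 on CT1 and CT2, and Lrrn4 6.29 and 7.54 against 4.93 and 5.03. Msln, mesothelin, was highest on M2 as well, at 5.63 against 4.54 to 5.18 on the other 8. The median of the list was 0.67 on the first kind and -0.08 on the second. Of its 10 members, 7 were higher and 2 lower without overlap on the first kind, beside 22.2% and 25% of all genes. The 2 lower members were Cav1, at 6.45 and 5.99 on M1 and M2 against 8.24 and 8.43 on CT1 and CT2, and Krt7. Krt7 read 5.92 and 6.83 on M1 and M2 against 7.19 and 7.48. Upk3b, a uroplakin that mesothelium also makes, was at 7.76 on M2 and 5.87 to 6.60 on the other 8. The list of lung epithelium had means of 5.04 to 5.30 on the 9 arrays, with the surfactant genes Sftpc at 4.34 to 5.40 and Sftpb at 4.76 to 5.04. Slc34a2 of that list, a phosphate transporter, was at 6.75 on M1 and 4.90 to 5.46 on the other 8 arrays. The kidney list likewise stayed within 4.74 to 4.99, and the median difference of the intestine list was -0.03.

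M1 and M2 shared a larger part of their low genes than of M1's high genes. Compared with the mean of CT1 and CT2, 1244 genes were higher by at least 1 on M1 and 657 on M2, with 342 in common, 27.5% of the former and 52.1% of the latter. Lower by at least 1 were 558 and 513 genes, with 312 in common, 55.9% and 60.8%. Both sets share the same 2 normal arrays, so the overlap is a description. M1 exceeded M2 by at least 2 for 105 genes and M2 exceeded M1 for 32, whereas CT1 and CT2 were that far apart for 3 genes.

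M1 stood alone for Gstm2, a glutathione transferase, at 11.89 against 6.90 to 7.78 on the other 8 arrays. Cst12 and Cstdc1, of the cystatin family, were at 9.08 and 8.86 on M1 and at most 5.06 and 6.06 elsewhere. Tmem255a was at 9.47, Gatm, of creatine synthesis, at 9.85 and Cyp2e1, a cytochrome P450, at 9.33 on M1, against at most 6.12, 6.72 and 6.70 elsewhere. M2 was the lowest array for Gstm1, at 6.90 against 12.33 on M1 and 11.69 and 11.98 on CT1 and CT2, and for Car3, a carbonic anhydrase, at 4.79 against 7.85 on M1. Gpnmb, a glycoprotein of lipid-laden macrophages, was at 8.96 on M2 and 5.69 on M1.

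**Figure D4:**
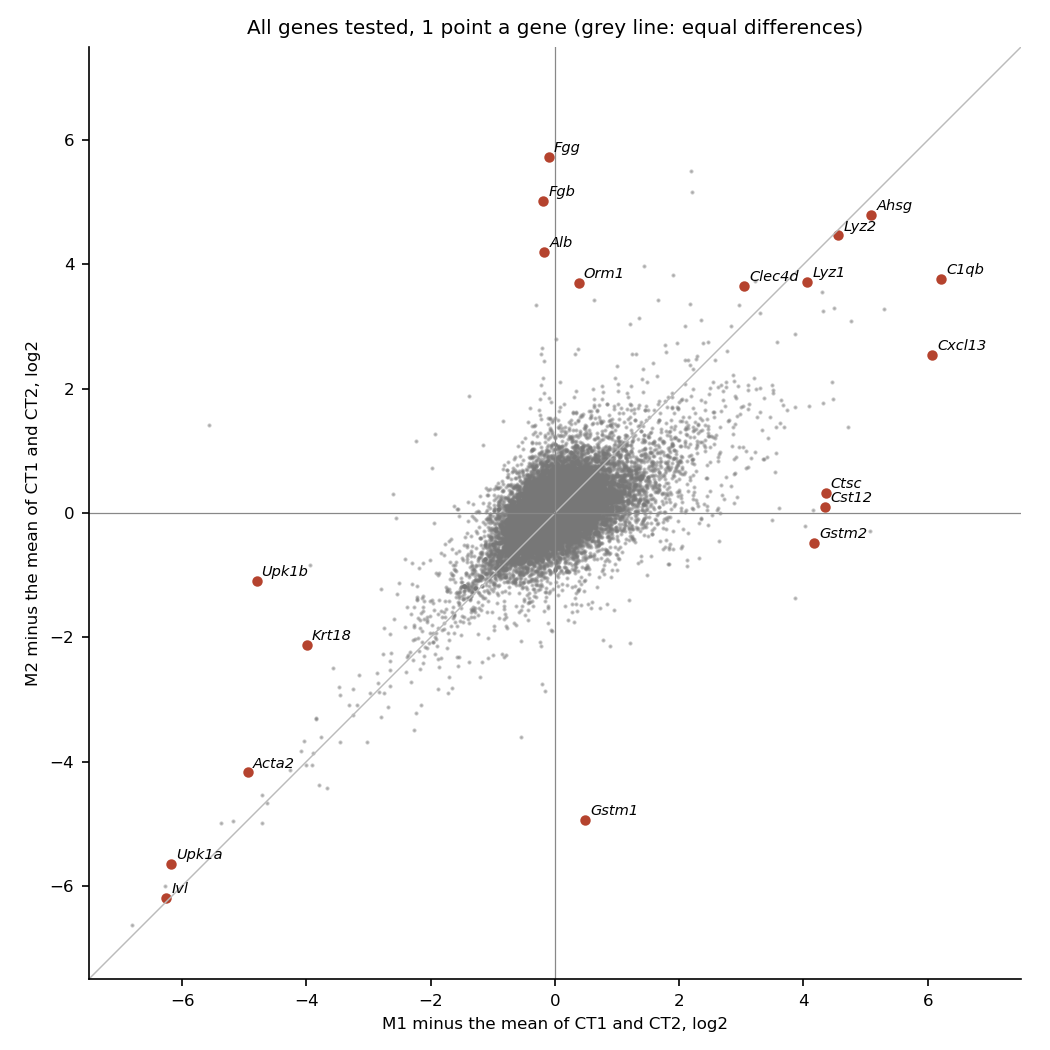
Each point is 1 of 30063 genes, plotted by its log2 difference from the mean of CT1 and CT2 on M1 (horizontal axis) and on M2 (vertical axis), with the line of equal differences and 19 genes labelled. Upk1a, Ivl and Acta2 lie near the line at the lower left and Lyz1, Lyz2 and Ahsg near it at the upper right, while Fgg, Fgb and Alb are high on M2 alone and Gstm2, Cst12 and Ctsc on M1 alone.

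M3 and M4 were set apart from CT4, CT5 and CT6 by far less. In this set 95 genes (0.316%) were higher by at least 1 and 140 (0.466%) lower, and for none did the adjusted p fall below 0.763 in limma. Tdpoz1, one of the genes highest on M3 alone, read 6.69 on M3 and 4.67 to 5.23 elsewhere. M3 was the lowest array for the mitochondrial transcripts COX1 and ND2, at 12.60 and 12.28 against at least 14.42 and 13.17, and for the heat shock protein gene Hspa8, at 11.63 against at least 12.77. M4 was the lowest for Vdac3, a channel of the outer mitochondrial membrane, at 6.76 against at least 7.95, and for the actin-severing factor Dstn, at 6.54 against at least 7.23. The comparison over 9 arrays averages a pair with differences of up to 6.72 and a pair with few. The 3 tumour bladders on the same kind of array as M3 and M4 also lay near these 5 arrays. They read 8.14 to 8.60 for Upk1a, 7.33 to 7.79 for Acta2 and 8.94 to 9.50 for Lyz2. Similar values on this kind were thus not particular to metastases and normal bladders, and the reason was not tested.

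For a small p over all arrays, 8 genes were named in each direction, after predicted genes, small RNAs and olfactory receptors were left out. These are not the 16 smallest p of all genes, and Ctsk, with an unadjusted p of 0.000859 in limma, is not among them. Among these 16 genes, Clec4d, Tlr7 and Gpr65 had differences above 1 on the first kind and below 1 on the second. The other 13 had differences of less than 1 on both kinds, and which kind had the wider difference varied among them. Of these 13 genes, 7 are given here. Zfp354b, a zinc finger gene, read 4.87, 4.96, 5.16 and 5.01 on M1 to M4 and 5.57 to 5.99 on the normal bladders, a difference of -0.81 (SE 0.15) with an unadjusted p of 3.56e-05 and an adjusted p of 0.526 in limma. Pstk, a kinase of selenocysteine synthesis, read 5.85 to 6.43 against 6.56 to 6.92, and Scube1, a secreted surface protein, 5.13 to 5.34 against 5.56 to 6.02. Id4, an inhibitor of helix-loop-helix factors, was at most 4.63 in metastases and at least 5.02 in normal bladders. Higher in all metastases were Hspa13, a chaperone, at 5.94 to 6.42 against 5.43 to 5.86, Birc2, an inhibitor of apoptosis, at 6.39 to 6.65 against 5.83 to 6.19, and Cep76, a centriole protein, at 5.23 to 5.58 against 4.92 to 5.13. For these 7 genes the difference had the same sign on both kinds of array, from -0.85 (Zfp354b) to 0.49 (Hspa13) on the second. Their choice by a small p over both kinds favours the same sign, so it is no separate evidence. None passed the adjusted test.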

How the data were processed

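The deposited values are log2 expression levels that the authors made with RMA in Affymetrix Expression Console, per the submitters' processing notes, which give no versions; the log base was taken as 2 because RMA gives log2. Per the labels' protocols, 12 ng of RNA from an FFPE kit entered labelling. Values ran from 2.16 to 22.0. Of 65956 rows, 30604 had 1 gene symbol; for 429 genes with several rows the brightest over 20 arrays was kept, which left 30063 genes, dim ones included.

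One mean per group was fitted over the 20 arrays in limma 3.58.1 (R 4.3.3), with empirical Bayes variances, 2-sided tests, Benjamini-Hochberg adjustment over 30063 genes and a threshold of 0.05. The difference between the kinds of array was an interaction contrast. Procedures were tested on simulated data with independent noise and an equal shift of all 4 metastases. Of 200 genes changed by 2 in this comparison, 189 were recovered, with 9 false calls. The simulation did not include the 2 kinds of array. Its recovery therefore does not apply to differences seen on M1 and M2 alone. Members and gene lists were chosen with earlier results of these data known. Lists were described by counts and medians. Named genes are the 8 smallest p in each direction, the engineered genes, the first 4 and the extreme members of each list, the 10 widest gaps in each direction between M1, M2 and CT1, CT2, and the 8 furthest above and below on each metastasis. The choices by p, by gap and by single metastasis left out predicted genes, olfactory and vomeronasal receptors, small RNAs and receptor or immunoglobulin segments. Named after their values were seen were Acp5, Aqp3, Arg1, Atp6v0d2, B2m, Cdkn1a, Cdkn2a, Cldn4, Ctsb, Cyp2e1, Gata6, Gli1, Gm3534, Gpnmb, Hp, Il33, Mmp12, Mmp9, Prg4, Ptch1, Shh and Tyrobp. Alternatives are given at the end.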

Additional observations from a re-analysis of the deposited data

Results flagged for a closer look

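The difference between metastasis and normal bladder itself differed between the kinds of array, by a test of that difference, for Ahsg (4.83) and Lyz1 (3.87).

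Single arrays lay apart from the rest of their group by Dixon's ratio of the gap to the whole range, with limits of 0.829 for 4 arrays and 0.71 for 5. Chance gives about 1 in 20 such cases, and 15 of 334 gene groups and 5 of 78 list groups passed. Both shares lie near that rate, so the cases are a description. Cst12, Gstm2, Ctsc, Gatm, Alb, Fgg, Orm2, COX1 and Hspa8 were named for standing furthest apart on the same metastasis. For these genes the choice favours a high ratio, and the chance rate does not apply. M1 was apart among the metastases for Mki67 (0.916), Cdk1 (0.83), Slc2a1 (0.908), Cst12 (0.94), Gstm2 (0.924), Ctsc (0.894) and Gatm (0.943), and for the lists of neutrophils (0.844), G2 and M phase (0.894) and S phase (0.949). M2 was apart for Gata6 (0.836), Alb (0.843), Fgg (0.895), Orm2 (0.906) and the mesothelial list (0.898). M3 was apart for COX1 (0.951) and Hspa8 (0.937). Among the normal bladders CT6 was apart for Shh (0.908), Vdac3 (0.718) and the pancreas list (0.927).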

How the results depend on the processing

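The count of changed genes stayed at 0 under array weights, a trended and robust variance, filters on dim or bright genes, renewed quantile normalisation, centring, other row choices, PALBO-MET as a metastasis, a term for the kind of array and each array left out (0 to 0), with smallest adjusted p-values from 0.0619 to 0.933. It was 1 in the fit of 9 arrays and 3 on the first kind of array alone. Replicate numbers did not pair the samples (correlations of -0.159, -0.051 and -0.155), and with the replicate block the count was 0.

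The alternatives for the difference between the kinds were added after seeing the data: 2 genes in the main setting, 113 in the fit of 9 arrays, 40 with array weights, and 2 to 47 with single arrays left out. The cause was not tested. Genes without overlap numbered 858 over 9 arrays, 378 with PALBO-MET as a metastasis, 14185 on the first kind, 5982 on the second, and 1081 to 1953 with single arrays left out, fewer arrays giving more. The term for the kind of array has no meaning for that count and was not run. Of 167 genes, 58 changed the sign of their difference on the second kind alone and at most 18 under any other setting.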
